A study of Mus musculus with 12 samples.

Results

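The 42 genes described here encode the enzymes and carriers that bring glucose into the cell, break it down to pyruvate and decide what becomes of the pyruvate, together with 5 genes that join glucose 1-phosphate to glycogen. They are defined by a list of gene symbols. Of the 42, 34 were tested among 11325 genes, 4 (Pgam2, Eno2, Pdk2 and Pdk4) were too dim to pass the filter, and Gapdh is represented by array control probe sets, which stayed out of the test. Gpi1, Eno1 and Mpc2 were not analysed here. RNA came from splenocytes of DBA/2 mice aged 10 weeks, cultured for 9 days with KLN-205KD cells, a mouse squamous lung carcinoma line in which SEMA3A was knocked down. All groups shared that knockdown and interleukin-2 at 100 units/mL, given every 3 days. The control group had nothing further. The SEMA6A group used tumour cells made to overexpress SEMA6A, a membrane-bound semaphorin. In the SEMA3A group purified SEMA3A, a secreted semaphorin, was added at 10 µg/mL. The SEMA6A+SEMA3A group had both. Each of the 4 groups had 3 arrays. The labels do not give separate cultures or animals behind the arrays of a group, or whether the SEMA6A line was 1 clone, so p-values measure only the spread between these arrays, which may be technical.

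Glucose enters through carriers of the SLC2A family, is trapped by hexokinase, committed by phosphofructokinase, split by aldolase and carried through Gapdh, phosphoglycerate kinase, phosphoglycerate mutase and enolase to pyruvate kinase. Pyruvate is then either reduced to lactate by lactate dehydrogenase and exported by SLC16A carriers, or taken into mitochondria and oxidised by the pyruvate dehydrogenase complex, which the PDK kinases switch off and the PDP phosphatases switch on. Activated T cells are known to run glycolysis to lactate even with oxygen present, and CD8 T cells can also store and use glycogen.

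The arrays were of similar brightness. Median deposited signals ranged from 42.5 to 53.5 over the arrays, and the maximum of each array from 44046 to 53212. All 7 T cell and cytotoxic markers (Cd3e, Cd3d, Cd3g, Cd8a, Cd8b1, Gzmb and Prf1) passed the filter. Their summed signal was 88144 to 113591 over the 12 arrays. Of the B cell genes Cd79b passed, while Ms4a1, Cd79a and Pax5 lay below the filter, as did 6 of 10 macrophage markers. Of 14 squamous carcinoma markers 10 passed, with Krt14, Krt17, Trp63 and Itgb4 below the filter, and their sum was 4125 on SEMA6A replicate 2 against 2672 to 3371 on the other arrays. On that same array the ratio of the 3' to the 5' Gapdh control set was 1.22, against 0.767 to 0.818 elsewhere. It stood apart from the rest in this respect, and for some of the genes values are also given without it. All other SEMA6A values include that array. In these mixed cultures fewer cells of a type and less RNA per cell cannot be told apart.

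Most genes of glucose uptake, glycolysis and glycogen breakdown had a higher mean level than control in the cultures with either semaphorin alone, on some of the arrays, and smaller differences in the cultures with both. None passed the test. In SEMA6A against control 26 of 34 genes had a log2 difference above 0 (53.3% of all genes tested did) and 8 below 0 (46.7%), with a median of 0.23 against 0.02 over all genes. In SEMA3A against control 29 of 34 were above 0 (51.7% of all genes) and 5 below (48.3%), with a median of 0.25 against 0.01. In SEMA6A+SEMA3A against control 25 were above 0 (53.4% of all genes) and 9 below (46.6%), and the median was 0.08 against 0.01, which turned to -0.063 against -0.15 when arrays were scaled by their medians. In every comparison 0 members and 0 of 11325 genes had an adjusted p under 0.05 in limma's test with Benjamini-Hochberg adjustment (0% of all genes), so the values that follow are differences that did not pass.

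Before adjustment, 15 genes of the list had p under 0.05 and a higher level in SEMA6A than in control, against 6.53% of all genes, and 0 had a lower one, against 3.92%. In SEMA3A against control 16 were higher (4.87% of all genes) and 1 was lower (3.87%), and in SEMA6A+SEMA3A against control 0 were higher (2.58%) and 0 lower (1.53%). The smallest adjusted p of the list was 0.475 for SEMA6A, 0.551 for SEMA3A and 1.00 for both factors. SEMA6A against control and SEMA3A against control share the control arrays, so their likeness is no independent support. The heat map of the 34 genes lays out the same values array by array.

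**Figure D1:**
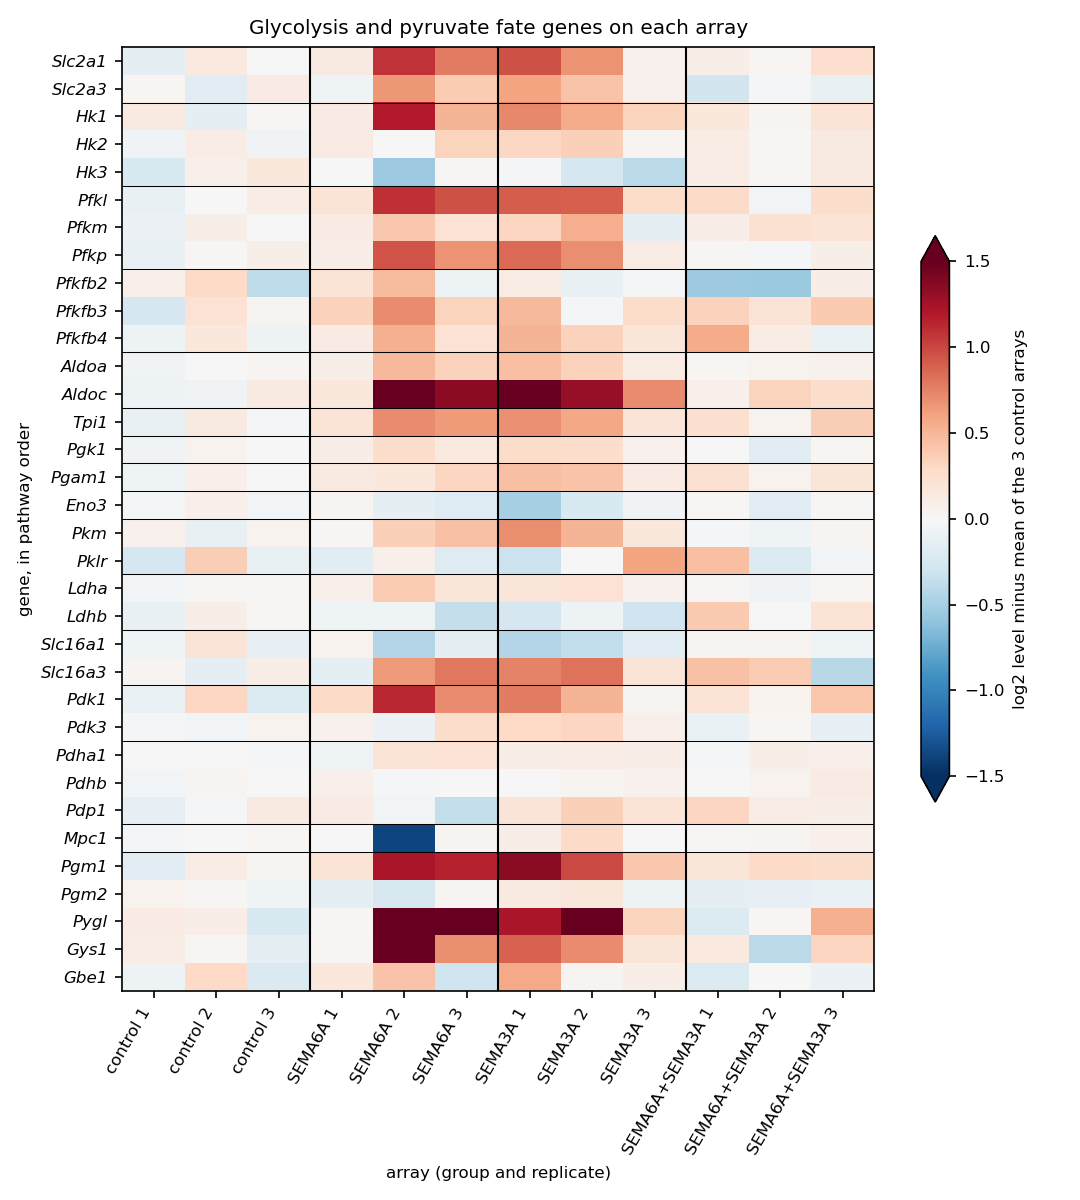
Each cell shows the log2 level of a tested gene (rows, in pathway order) on an array (columns, grouped by culture) minus the mean of the 3 control arrays, with the colour scale ending at 1.5 in either direction. SEMA6A replicates 2 and 3 and SEMA3A replicates 1 and 2 hold most of the strong red cells, and Mpc1 on SEMA6A replicate 2 is the darkest blue one.

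The arrays of a group did not move alike. Taking the median over the 34 genes of each array's deviation from the control mean, the SEMA6A arrays stood at 0.09, 0.42 and 0.29 and the SEMA3A arrays at 0.46, 0.35 and 0.10. The SEMA6A+SEMA3A arrays stood at 0.09, 0.03 and 0.10 and the control arrays at -0.06, 0.06 and 0.00. The higher levels thus came from SEMA6A replicates 2 and 3 and SEMA3A replicates 1 and 2, while SEMA6A replicate 1 and SEMA3A replicate 3 had medians close to those of the arrays with both factors. On SEMA6A replicate 1, 14 of the 34 genes lay above the highest control array, where 25.9% of all genes did. The count was 23 on replicate 2 (41.9% of all genes) and 24 on replicate 3 (32.5%). On the SEMA3A arrays it was 27 (34.9%), 26 (32.1%) and 21 (29.0%), and on the SEMA6A+SEMA3A arrays 14 (29.1%), 8 (31.2%) and 20 (27.7%).

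Other measures differed between these arrays too. The 3'/5' ratio of the transferrin receptor control sets was 8.39, 35.7 and 23.3 on the SEMA6A arrays, 17.2, 17.6 and 18.1 on the SEMA3A arrays, 6.82 to 9.34 in control and 5.93 to 12.2 with both factors. On the SEMA6A arrays the ratio had the same order as the median deviations over the 34 genes, at 0.09, 0.42 and 0.29. On the SEMA3A arrays it did not: replicate 3, with a median deviation of 0.10, had as high a transferrin receptor ratio as its fellow replicates. The summed signal of the neutrophil list, of which Il1r2 alone of 7 genes passed the filter and S100a8, S100a9, Mpo, Elane and Cxcr2 lay below it, was 109, 504 and 285 in SEMA6A, 387, 363 and 144 in SEMA3A, 115 to 134 in control and 204 to 240 with both. That sum was high on the same 4 arrays. The macrophage and monocyte list, with Csf1r, Cd14, Cd68 and Fcgr1 passing, had its highest sums on SEMA6A replicate 2, at 912, and SEMA3A replicate 1, at 924, against 598 to 645 in control. The mast cell and basophil list, 3 of 6 passing, reached 5533 on SEMA3A replicate 1 against 2664 to 3378 in control. The part of these measures in the glycolysis values was not tested.

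**Figure D2:**
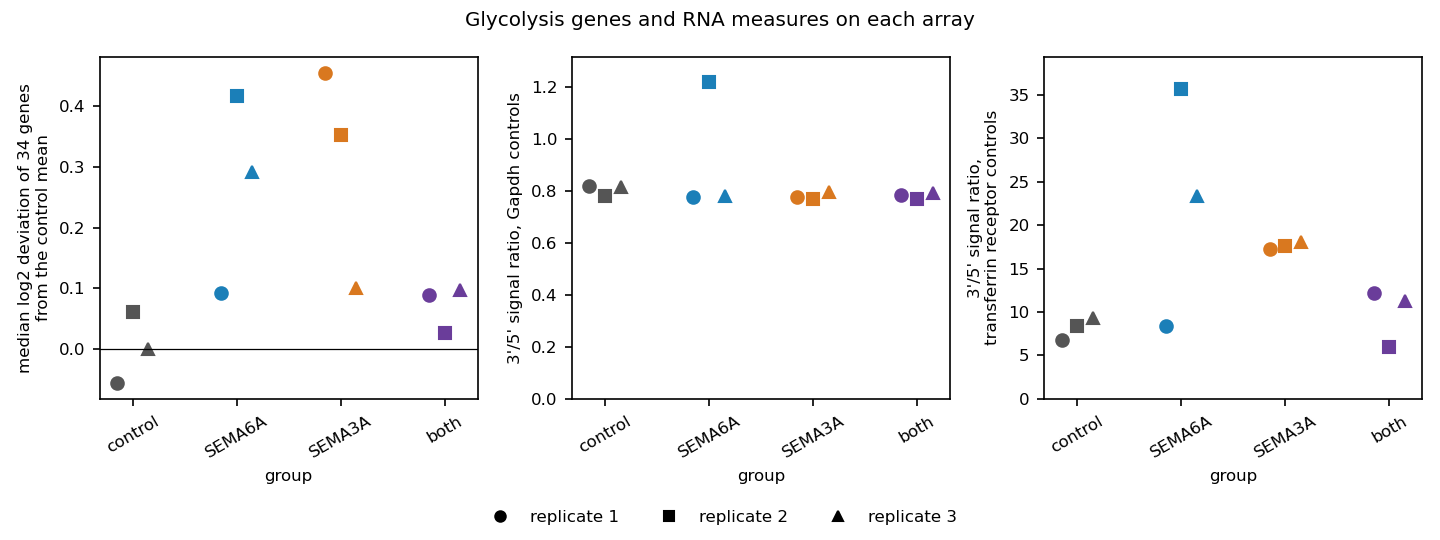
Points are single arrays, with the group on the horizontal axis and the replicate by symbol: the left panel plots the median log2 deviation of the 34 genes from the control mean, the middle panel the 3'/5' signal ratio of the Gapdh control sets and the right panel that of the transferrin receptor control sets. SEMA6A replicate 2 stands apart at 1.22 in the middle panel, while SEMA3A replicates 1 and 2 are high in the left panel at 0.46 and 0.35 with Gapdh ratios like those of the control arrays.

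Glucose carriers stood higher with either factor alone. Slc2a1, the widely expressed glucose carrier GLUT1, had deposited signals of 3784, 4657 and 4235 in control, 4656, 8772 and 7108 in SEMA6A, 8108, 6704 and 4448 in SEMA3A and 4485, 4253 and 5057 with both. In each single-factor group 1 array lay below the highest control and the others above it, and the arrays with both factors lay within or just above the control range. On the log2 scale Slc2a1 differed from control by 0.67 (SE 0.23) in SEMA6A, 0.57 (SE 0.23) in SEMA3A and 0.13 (SE 0.23) with both. Slc2a3, the high-affinity carrier GLUT3 of lymphocytes and neurons, read 13414, 11817 and 15064 in control, 12949, 20401 and 17425 in SEMA6A, 20928, 18168 and 14186 in SEMA3A and 11185, 13482 and 12410 with both. Its log2 differences from control were 0.32, 0.36 and -0.13 (SE 0.17 each), and 0.16 (SE 0.15) for SEMA6A without its replicate 2. Again the same 4 arrays were the high ones.

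Of the hexokinases, which trap glucose as glucose 6-phosphate, Hk1 followed that pattern. Its signals were 3420, 2832 and 3178 in control, 3399, 6979 and 4434 in SEMA6A, 5153, 4550 and 4005 in SEMA3A and 3477, 3190 and 3629 with both. All 3 SEMA3A arrays lay above all 3 controls, by 0.54 (SE 0.20) on the log2 scale, and in SEMA6A the difference was 0.61 (SE 0.20) with 1 array overlapping. Without SEMA6A replicate 2 the SEMA6A value of Hk1 was 0.32, and a second Hk1 probe set gave -0.02 (SE 0.18) in SEMA6A with all arrays and 0.57 (SE 0.18) in SEMA3A. Hk2, the inducible form, differed less, by 0.15 in SEMA6A and 0.23 in SEMA3A (SE 0.11 each). Hk3, a form of myeloid cells, was near the array medians, at 62.4, 80.9 and 82.5 in control, 74.6, 49.3 and 82.9 in SEMA6A, 79.0, 65.7 and 51.3 in SEMA3A and 87.5, 84.9 and 84.3 with both. It differed by -0.17 in SEMA6A and -0.23 in SEMA3A (SE 0.21 each), and by 0.01 in SEMA6A without its replicate 2.

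Phosphofructokinase, the committed step, is built from Pfkl, Pfkm and Pfkp subunits. Pfkl, the liver-type subunit, had signals of 1122, 1211 and 1304 in control, 1387, 2596 and 2330 in SEMA6A, 2237, 2239 and 1443 in SEMA3A and 1449, 1147 and 1446 with both. Neither single-factor group overlapped the controls. Its log2 difference was 0.75 (SE 0.22) in SEMA6A, a 1.68-fold level, 0.69 (SE 0.22) in SEMA3A and 0.17 (SE 0.22) with both. Pfkp, the platelet-type subunit, had 7030, 7783 and 8194 in control, 8374, 14986 and 12231 in SEMA6A, 13879, 12516 and 8440 in SEMA3A and 7827, 7582 and 8361 with both. On its brightest probe set it too stood above every control array in both single-factor groups, by 0.58 and 0.55 (SE 0.20 each). Its dimmer sets gave -0.34 (SE 0.25) and 0.14 (SE 0.22) in SEMA6A. In SEMA3A the same sets gave 0.22 (SE 0.25) and 0.49 (SE 0.22). Pfkm, the muscle-type subunit, differed by 0.25, 0.24 and 0.18 (SE 0.16 each) in SEMA6A, SEMA3A and both. The bifunctional enzymes that set fructose 2,6-bisphosphate, the activator of phosphofructokinase, also pointed up in SEMA6A. Pfkfb3, with signals of 194, 266 and 230 in control, 288, 387 and 302 in SEMA6A, 336, 232 and 272 in SEMA3A and 292, 267 and 300 with both, differed by 0.46, 0.24 and 0.31 (SE 0.17 each), and Pfkfb4 by 0.29, 0.35 and 0.19 (SE 0.18 each). Pfkfb2 differed by 0.20, -0.01 and -0.33 (SE 0.24 each) on its brightest set. A dimmer Pfkfb2 set gave 0.41 in SEMA6A and 0.48 in SEMA3A (SE 0.25 each). That set read 74.0, 97.4 and 56.5 with both factors, against 59.2, 26.7 and 48.1 in control.

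The aldolases split fructose 1,6-bisphosphate into triose phosphates. Aldoa, the ubiquitous form, had signals of 21145, 21478 and 24591 in control, 24460, 29060 and 28297 in SEMA6A, 31980, 30576 and 24653 in SEMA3A and 23302, 23879 and 23033 with both, and differed by 0.31, 0.31 and 0.05 (SE 0.10 each). Aldoc, the form known from brain, had the largest differences of the 34 genes in SEMA6A and in SEMA3A. Its signals were 761, 757 and 864 in control, 868, 3940 and 2024 in SEMA6A, 3394, 1966 and 1280 in SEMA3A and 821, 986 and 943 with both. All 6 arrays with a single factor lay above the highest control array, although SEMA6A replicate 1 did so by little. Aldoc thus differed by 1.27 (SE 0.42) in SEMA6A, a 2.41-fold level, by 1.37 (SE 0.42) in SEMA3A, a 2.59-fold level, and by 0.23 (SE 0.42) with both. Without SEMA6A replicate 2 its SEMA6A difference was 0.75.

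**Figure D3:**
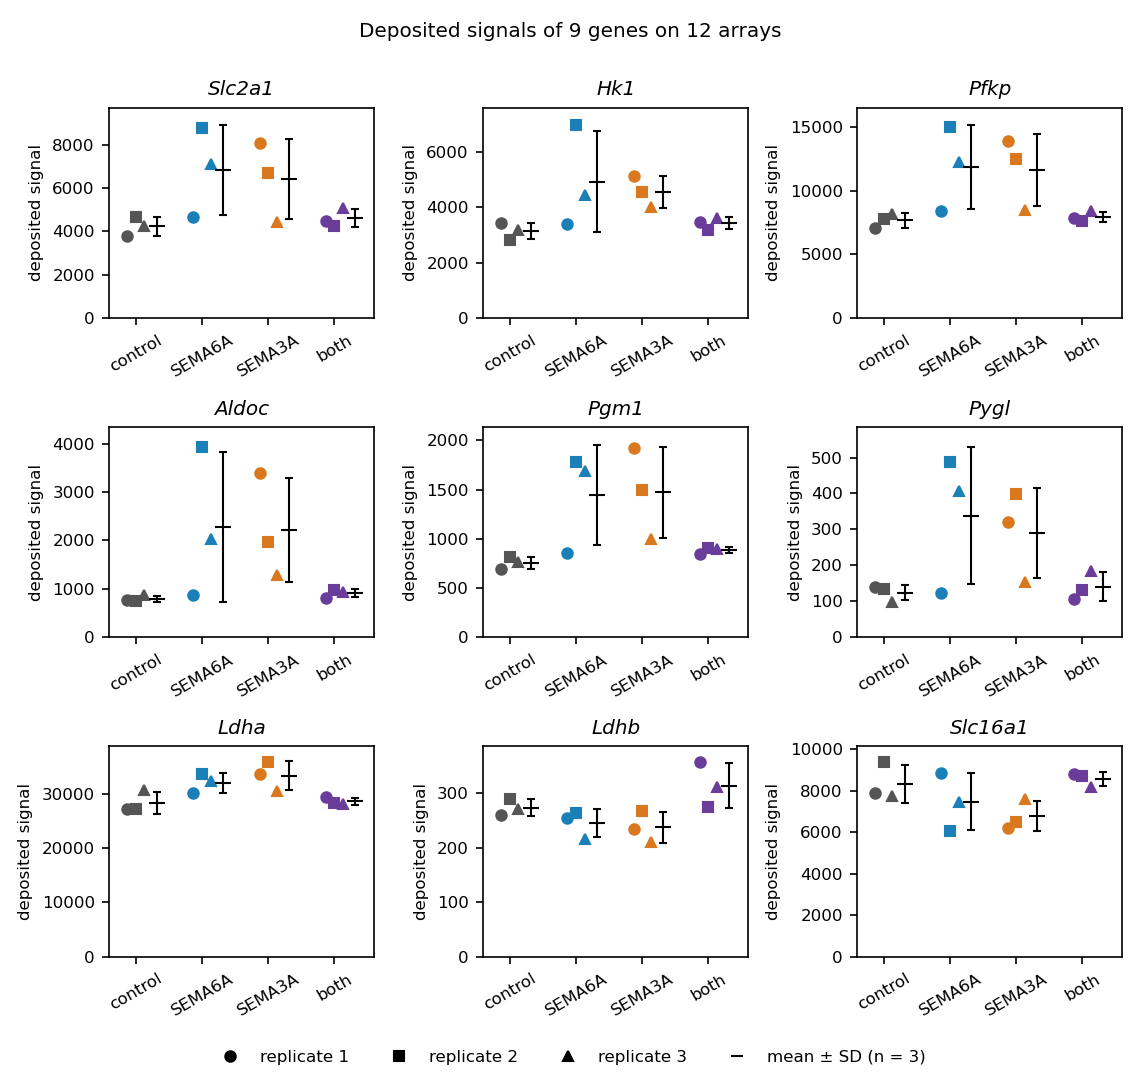
Deposited linear signals (vertical axes from 0) of 9 genes are plotted for each array by group and replicate, with a bar for the mean ± SD of 3 arrays beside the points. In Slc2a1, Hk1, Pfkp, Aldoc, Pgm1 and Pygl the square and triangle of SEMA6A and the circle and square of SEMA3A lie highest, while for Slc16a1 the SEMA6A square, at 6089, and the SEMA3A circle, at 6218, lie lowest.

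Genes of the lower part of the pathway pointed up as well, except Eno3 and, in SEMA6A, Pklr. Tpi1, which interconverts the triose phosphates, had 15030, 18000 and 16870 in control, 19340, 25580 and 26067 in SEMA6A, 28124, 26690 and 19336 in SEMA3A and 20050, 17915 and 21392 with both, and differed by 0.52, 0.49 and 0.22 (SE 0.14 each). No array with a single factor overlapped the controls. Pgk1, the first ATP-making step, had 23297, 23855 and 25730 in control, 26507, 26916 and 27063 in SEMA6A, 30816, 31396 and 26080 in SEMA3A and 24749, 22082 and 24751 with both, and differed by 0.17, 0.20 and -0.05 (SE 0.07 each). The cultures with both factors were thus at the control level of Pgk1. Pgam1, which shifts the phosphate of 3-phosphoglycerate, had 10760, 11981 and 11607 in control, 12681, 12844 and 14296 in SEMA6A, 15872, 15707 and 12612 in SEMA3A and 13476, 12012 and 12990 with both, and differed by 0.20, 0.34 and 0.15 (SE 0.09 each). Pkm, the pyruvate kinase of T cells, had 11544, 10428 and 12015 in control, 11717, 14930 and 15322 in SEMA6A, 18997, 16733 and 12911 in SEMA3A and 11383, 11118 and 11817 with both. Its SEMA3A arrays did not overlap the controls, at 0.46 (SE 0.13), and its SEMA6A difference was 0.27 (SE 0.13). Eno3, the muscle enolase, pointed the other way, at -0.10, -0.26 and -0.04 (SE 0.12 each). Its signals were 688, 722 and 661 in control, 693, 628 and 603 in SEMA6A, 486, 582 and 654 in SEMA3A and 683, 605 and 687 with both. Pklr, the liver and red cell pyruvate kinase, was near the array median, with differences of -0.10, 0.09 and 0.07 (SE 0.29 each).

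Gapdh, the glycolytic dehydrogenase often used as a loading control, had small differences. Its 5' control set read 33656, 33728 and 37432 in control, 36900, 22360 and 38586 in SEMA6A, 40519, 42848 and 36740 in SEMA3A and 36224, 36431 and 34610 with both, close to the highest signals on the arrays. With its control sets added to the fit, SEMA6A differed from control by 0.06 (SE 0.05) at the 3' set and -0.15 (SE 0.13) at the 5' set, and SEMA3A by 0.08 (SE 0.05) and 0.10 (SE 0.13). The opposite signs of the SEMA6A values go with the low 5' signal of SEMA6A replicate 2. The 4 genes below the filter stayed dim throughout. Pgam2 ranged from 3.45 to 33.2, Eno2 from 0.536 to 12.6, Pdk2 from 2.33 to 39.1 and Pdk4 from 1.02 to 36.7, so no difference was detectable for them.

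For pyruvate leaving as lactate, genes pointed both ways. Ldha, the lactate dehydrogenase subunit linked with lactate production, had 27168, 27137 and 30689 in control, 30109, 33746 and 32364 in SEMA6A, 33691, 35905 and 30503 in SEMA3A and 29404, 28322 and 28197 with both. It differed by 0.21, 0.15 and 0.00 (SE 0.07 each), and by 0.13 (SE 0.06) in SEMA6A without its replicate 2. Ldhb is the subunit of tissues that use lactate. Its brightest probe set pointed down, at -0.16 in SEMA6A and -0.21 in SEMA3A, and up with both, at 0.20 (SE 0.14 each). The signals of that set were 260, 290 and 271 in control, 254, 264 and 217 in SEMA6A, 234, 268 and 211 in SEMA3A and 357, 274 and 311 with both. Dimmer Ldhb sets gave -0.18 (SE 0.19) and 0.35 (SE 0.38) in SEMA6A. In SEMA3A they gave -0.41 (SE 0.19) and -0.37 (SE 0.38). Slc16a1, the lactate carrier MCT1 of proliferating T cells, had 7894, 9406 and 7757 in control, 8841, 6089 and 7487 in SEMA6A, 6218, 6516 and 7615 in SEMA3A and 8817, 8728 and 8177 with both. All 3 SEMA3A arrays lay under the controls, at -0.32 (SE 0.12), and it was the 1 gene of the list with p under 0.05 and a lower level in SEMA3A. In SEMA6A it stood at -0.18 (SE 0.12), and at -0.05 without replicate 2. Slc16a3, the exporter MCT4 of highly glycolytic cells, pointed the opposite way at 0.43, 0.58 and 0.13 (SE 0.27 each), with signals of 165, 302 and 344 in SEMA6A and 330, 351 and 207 in SEMA3A against 166 to 197 in control.

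Of the genes that steer pyruvate into mitochondria, the kinase Pdk1 stood higher with a single factor and the subunits of the complex lay near 0. Pdk1, which inactivates pyruvate dehydrogenase, had 1691, 2230 and 1546 in control, 2185, 3937 and 2918 in SEMA6A, 3028, 2537 and 1839 in SEMA3A and 2052, 1831 and 2388 with both, and differed by 0.71, 0.44 and 0.22 (SE 0.22 each). Pdk3 differed by 0.08, 0.24 and -0.07 (SE 0.11 each). The complex subunits had small differences with narrow intervals: Pdha1 differed by 0.12, 0.10 and 0.04 (SE 0.09 each) and Pdhb by 0.01, 0.04 and 0.06 (SE 0.07 each). Pdhb had signals of 5116, 5417 and 5332 in control, 5673, 5105 and 5192 in SEMA6A, 5258, 5390 and 5601 in SEMA3A and 5329, 5512 and 5810 with both. The 95% interval of Pdhb reached from -0.13 to 0.16 in SEMA6A and from -0.11 to 0.18 in SEMA3A. The phosphatase Pdp1 differed by -0.09, 0.25 and 0.17 (SE 0.14 each). Mpc1, a subunit of the mitochondrial pyruvate carrier, read 861 on SEMA6A replicate 2 and 2221 to 2702 on the other 11 arrays. Its SEMA6A difference of -0.44 (SE 0.27) rested on that array and was 0.02 (SE 0.09) without it.

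Genes at the glycogen branch held some of the largest differences. Pygl, the glycogen phosphorylase that releases glucose 1-phosphate, had 140, 133 and 99.2 in control, 122, 487 and 407 in SEMA6A, 321, 398 and 154 in SEMA3A and 106, 131 and 185 with both. Its log2 difference was 1.13 (SE 0.41) in SEMA6A, 1.02 (SE 0.41) in SEMA3A and 0.12 (SE 0.41) with both, and SEMA6A replicate 1 lay inside the control range. Pgm1, the phosphoglucomutase that links glucose 1-phosphate with glucose 6-phosphate, had 691, 815 and 767 in control, 859, 1781 and 1693 in SEMA6A, 1924, 1501 and 999.5 in SEMA3A and 848, 905 and 896 with both. On the brighter of its probe sets all 9 arrays with a semaphorin lay above the 3 controls. The differences were 0.86, 0.92 and 0.24 (SE 0.25 each), or 1.82-fold, 1.89-fold and 1.18-fold. A dimmer Pgm1 set, with a mean signal of 108, gave 0.09 in SEMA6A and 0.00 in SEMA3A (SE 0.23 each). Gys1, the synthase that builds glycogen, had 322, 288 and 253 in control, 285, 837 and 481 in SEMA6A, 552, 490 and 317 in SEMA3A and 316, 214 and 354 with both, and differed by 0.73, 0.59 and 0.02 (SE 0.30 each), and by 0.36 (SE 0.25) in SEMA6A without its replicate 2. The branching enzyme Gbe1 (0.10, 0.24 and -0.10, SE 0.20 each) and the second mutase Pgm2 (-0.12, 0.08 and -0.12, SE 0.11 each) differed little.

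**Figure D4:**
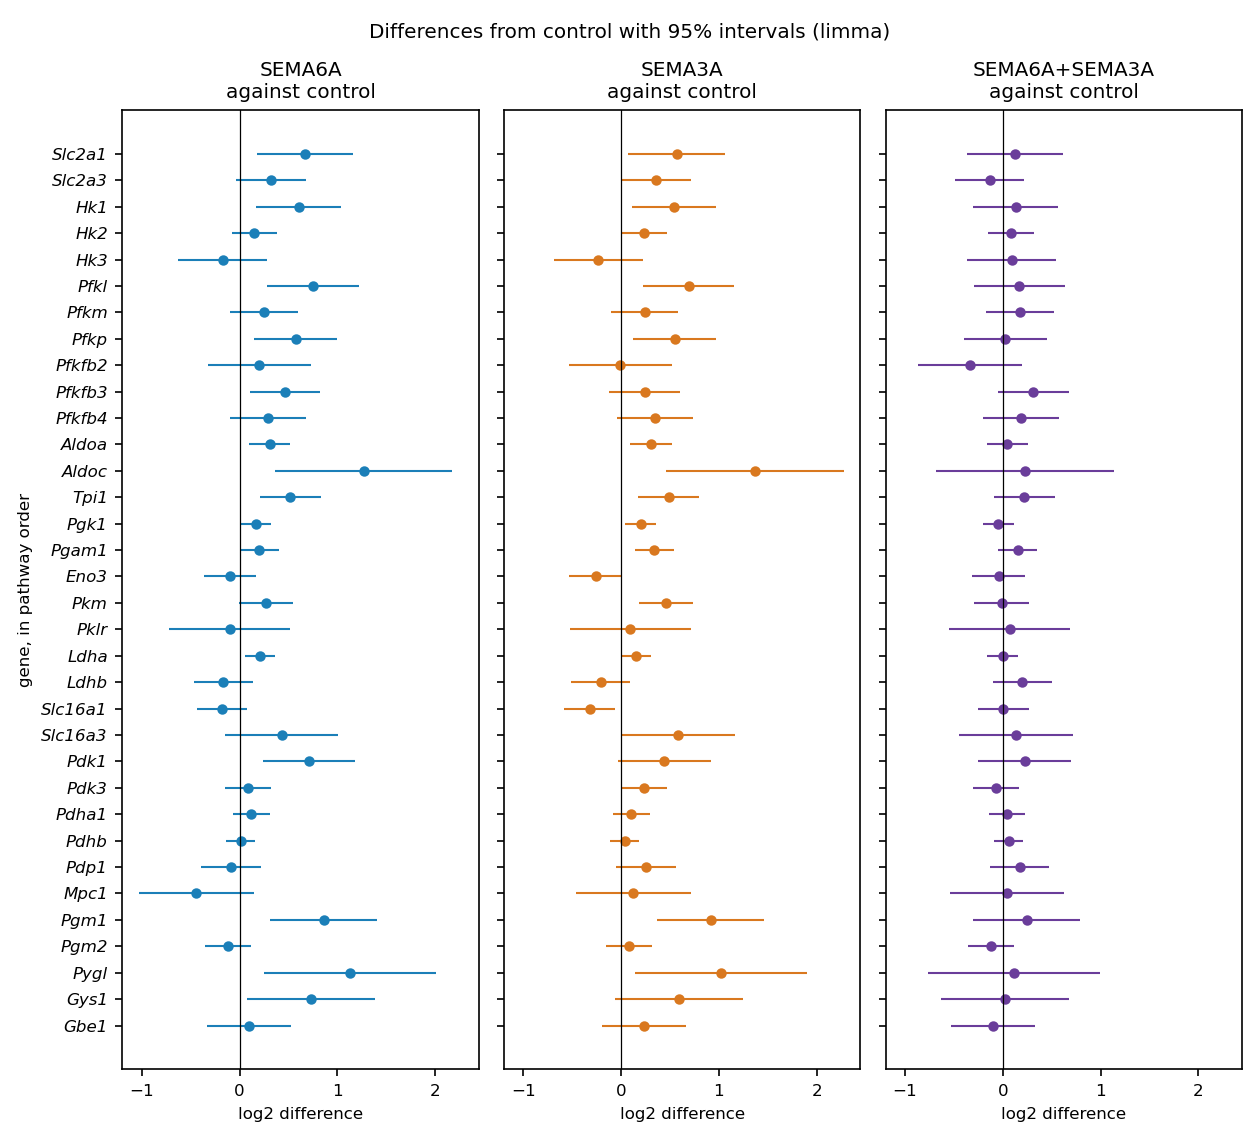
Points are log2 differences from control with 95% intervals from limma for each of the 34 genes, in 3 panels for SEMA6A, SEMA3A and SEMA6A+SEMA3A. Aldoc and Pygl reach furthest to the right in the first and second panels (1.27 and 1.13, 1.37 and 1.02), and in the third panel every interval contains 0.

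Groups were also compared by whether their arrays overlapped, on the normalized log2 scale. In SEMA6A 11 genes of the list lay wholly above control (7.36% of all genes) and 0 wholly below (4.77%). In SEMA3A 18 lay wholly above (9.92% of all genes) and 2 wholly below (7.31%). With both factors 2 genes, Pfkm and Pgm1, lay wholly above (8.55%) and 1, Pgm2, wholly below (6.53%), named here after their values were seen. The count with both factors was thus near or under its background.

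Adding the second factor to the first was compared directly. Against SEMA3A alone, the cultures with both had 28 of the 34 genes below 0 (48.6% of all genes) and 6 above (51.4%), a median of -0.23 against 0.01 over all genes, and 10 genes lower at p under 0.05 (5.38%) with 2 higher (5.84%). The 10 were Slc2a3, Pfkl, Pfkp, Aldoa, Aldoc, Pgk1, Pkm, Pdk3, Pgm1 and Pygl, and the 2 were Ldhb and Slc16a1. When arrays were scaled by their medians in place of quantile normalization, the counts became 19 lower and 0 higher, where 9.11% of all genes were lower and 2.03% higher and their median was -0.062. Pkm was lower by -0.47 (SE 0.13), Aldoc by -1.15 (SE 0.42) and Pgk1 by -0.25 (SE 0.07), while Ldhb was higher by 0.41 (SE 0.14). The adjusted p of Pkm and Pgk1 in limma's test was 0.402, the smallest of the list, and that of Aldoc and Ldhb 0.404. By overlap 13 genes lay wholly below SEMA3A (10.7% of all genes) and 3, Hk3, Ldhb and Slc16a1, wholly above (10.3%).

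Against SEMA6A alone, the cultures with both had 26 of the 34 genes below 0 (50.2% of all genes) and 8 above (49.8%), a median of -0.20 against 0.00 over all genes, and 15 genes lower at p under 0.05 (6.3%) with 1, Ldhb, higher (5.21%). Aldoc was lower by -1.04 (SE 0.42), Pygl by -1.01 (SE 0.41), Gys1 by -0.71 (SE 0.30) and Pgm1 by -0.62 (SE 0.25), with a smallest adjusted p of 0.424. By overlap 4 genes, Pfkp, Aldoa, Pgk1 and Ldha, lay wholly below SEMA6A (7.31% of all genes) and 1, Ldhb, wholly above (6.75%). Without SEMA6A replicate 2, 3 genes of the list were lower at p under 0.05 in place of 15 (3.02% of all genes in place of 6.3%), and the count higher in SEMA6A than in control was 8 in place of 15 (2.82% of all genes in place of 6.53%). Against SEMA6A without that array Aldoc stood at -0.52, Pygl at -0.67 and Gys1 at -0.34. Hk1 went from -0.47 to -0.18, Slc2a1 from -0.54 to -0.33, Slc2a3 from -0.46 to -0.29 and Pfkp from -0.55 to -0.36. Pdk1 went from -0.49 to -0.28, Aldoa from -0.26 to -0.17 and Ldha from -0.21 to -0.13.

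The interaction asks whether the level with both factors differs from the sum of the single effects. It is the log2 difference of both factors from control minus the SEMA6A and the SEMA3A differences, so a negative value means that the level with both lies below that sum. For the list 26 of 34 genes were below 0 (50.5% of all genes) and 8 above (49.5%), with a median of -0.42 against 0.00 over all genes. At unadjusted p under 0.05 there were 18 genes below 0, against 10.2% of all genes, and 2 above 0, against 7.82%. None passed after adjustment, and the adjusted p of these 20 genes ran from 0.197 to 0.253 in limma's test. Pgm1 (-1.53, SE 0.36, unadjusted p 0.00089), Pfkl (-1.27, SE 0.31, p 0.0011) and Aldoa (-0.57, SE 0.14, p 0.0012) had the smallest p of the list. The interaction and the comparisons above reuse the same SEMA6A and SEMA3A arrays, so they are no independent support for each other. Many genes of the list were high on the same arrays, so a count of genes is not a count of separate results.

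By step, both glucose carriers were below 0 (Slc2a1 -1.11, SE 0.32, and Slc2a3 -0.81, SE 0.23), as were Hk1 at -1.02 (SE 0.28) and Pfkp at -1.10 (SE 0.28). Aldoc had the most negative value at -2.41 (SE 0.60), with a 95% interval from -3.70 to -1.13, and Pygl the next at -2.03 (SE 0.58), from -3.28 to -0.79. Lower glycolysis gave Tpi1 -0.78 (SE 0.20), Pgk1 -0.41 (SE 0.10), Pgam1 -0.38 (SE 0.13), Pkm -0.74 (SE 0.18) and Ldha -0.36 (SE 0.10). At the exits Slc16a3 stood at -0.88 (SE 0.38), Pdk1 at -0.93 (SE 0.31), Pdk3 at -0.39 (SE 0.15) and Gys1 at -1.30 (SE 0.43). The 2 genes above 0 were Ldhb at 0.57 (SE 0.20) and Slc16a1 at 0.51 (SE 0.17). The Gapdh control sets gave -0.15 (SE 0.07) at the 3' end, -0.10 (SE 0.11) in the middle and 0.06 (SE 0.19) at the 5' end. Without SEMA6A replicate 2 the counts were again 18 below and 2 above 0 (8.28% and 7.06% of all genes), while Hk3 went from 0.50 to 0.31 and Mpc1 from 0.36 to -0.10. Without SEMA6A replicate 1, 17 genes of the list and 1286 of all genes (11.4%) had an adjusted p under 0.05. Without SEMA3A replicate 3 the counts were 12 and 281 (2.5%). Those 2 arrays were the ones closest to control in their groups for these genes.

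To set sequence beside these values, the promoters of 5 genes were read from RefSeq (GRCm38.p6): the 3 below 0 and the 2 above 0 with the smallest interaction p. Each run is the 250 bases before the annotated start, 5' to 3' on the gene's strand. Capitals mark ACGTG or GCGTG on either strand, the core letters of hypoxia response elements, with CACGTG, the E-box read by MYC and USF proteins, holding ACGTG on both strands.
Pgm1, chr4:99929201-99929450, plus strand: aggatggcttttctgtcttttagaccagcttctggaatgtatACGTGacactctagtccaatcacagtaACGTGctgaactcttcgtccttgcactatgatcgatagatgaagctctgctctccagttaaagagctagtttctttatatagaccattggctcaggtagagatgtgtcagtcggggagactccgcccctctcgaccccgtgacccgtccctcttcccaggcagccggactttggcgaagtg
Pfkl, chr10:78009808-78010057, minus strand: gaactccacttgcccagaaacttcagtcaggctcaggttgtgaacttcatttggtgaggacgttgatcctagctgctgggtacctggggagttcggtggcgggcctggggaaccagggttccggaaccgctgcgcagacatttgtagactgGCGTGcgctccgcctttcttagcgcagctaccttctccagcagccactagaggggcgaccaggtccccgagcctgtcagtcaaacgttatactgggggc
Aldoa, chr7:126800448-126800697, minus strand: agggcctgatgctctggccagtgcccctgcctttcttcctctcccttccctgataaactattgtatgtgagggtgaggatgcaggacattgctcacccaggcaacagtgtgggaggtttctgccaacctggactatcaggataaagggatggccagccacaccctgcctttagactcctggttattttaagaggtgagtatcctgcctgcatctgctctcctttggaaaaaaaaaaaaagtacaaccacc
Slc16a1, chr3:104638414-104638663, plus strand: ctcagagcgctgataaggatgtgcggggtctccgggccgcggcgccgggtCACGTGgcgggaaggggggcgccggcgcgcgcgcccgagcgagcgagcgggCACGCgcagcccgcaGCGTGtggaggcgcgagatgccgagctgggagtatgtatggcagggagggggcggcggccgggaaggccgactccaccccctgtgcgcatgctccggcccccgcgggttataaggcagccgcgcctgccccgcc
Ldhb, chr6:142507958-142508207, minus strand: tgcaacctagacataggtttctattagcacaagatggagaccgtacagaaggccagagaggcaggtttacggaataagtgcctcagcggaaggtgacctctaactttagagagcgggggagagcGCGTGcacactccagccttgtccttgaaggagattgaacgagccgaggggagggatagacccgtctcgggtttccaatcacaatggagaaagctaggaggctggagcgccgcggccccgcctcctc

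Pgm1 held ACGTG at 2 places, Pfkl and Ldhb 1 GCGTG each, and Slc16a1 a CACGTG with GCGTG at 2 places, while the Aldoa window held neither. The letters were therefore present in windows of genes on both sides of 0. Motifs were counted in the same 250 bases before the start. Among the 42 genes 40 had such a window, 58 windows in all (Slc2a3 and Pdp1 had none). Only the first listed for each gene was taken, here and in the sequences above, so other start sites of a gene were not read. ACGTG was found in 17 windows, or 42.5%, against 16.6% of the windows of 27025 genes, GCGTG in 20, or 50%, against 28.2%, and either of them in 30, or 75%, against 38.6%. CACGTG, counted within ACGTG as well, was in 5, or 12.5%, against 6.05%. Base composition was not matched between these windows, and a match is a string of letters, not a bound site.

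Different probe sets of a gene were compared as a check within the arrays. Of the 34 genes, 20 had 2 or more probe sets above the filter, and in 14 of the 20 all sets gave the interaction the same sign. Hk1, Pgm1 and Ldhb were among the 14, although in each gene the sets differed in SEMA6A against control. Pfkfb2 was another, with sets that differed in SEMA3A against control. The 3 Ldhb sets gave interactions from 0.05 to 0.57. The Pgm1 sets gave interactions of -1.53 and -0.43. All 4 sets of Pdk1 were negative, from -1.20 to -0.69, and both of Aldoc (-2.41 and -2.16) and of Gys1 (-1.30 and -1.64). In Aldoa, 4 sets gave -0.80 to -0.57 and another, dimmer set 0.24 (SE 0.19). The other genes with sets of mixed sign were Pfkp, whose brightest set gave -1.10 and another 0.18 (SE 0.36), Pfkl (-1.27, -1.04 and 0.13), Slc2a3 (-0.81, -1.11 and 0.67), Hk3 (0.50 and -0.30) and Pdhb (0.01 and -0.05). In Pfkl, Slc2a3 and Aldoa the set of the other sign was the dimmest of the gene's tested sets. Its mean signal was 206 for Pfkl, 45.5 for Slc2a3 and 1786 for Aldoa. In SEMA6A against control these sets gave -0.14 (SE 0.16) for Pfkl, -0.37 (SE 0.22) for Slc2a3 and 0.05 (SE 0.13) for Aldoa.

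**Figure D5:**
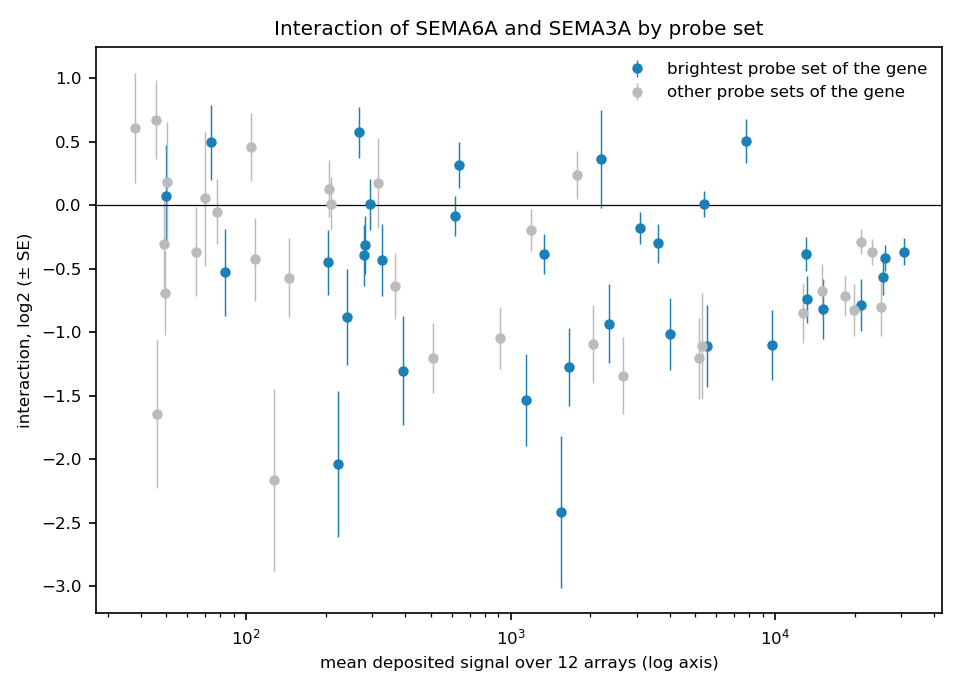
Each point is a probe set of a tested gene, with its mean deposited signal over the 12 arrays on a log axis, its interaction on the log2 scale on the vertical axis and a bar of ± 1 SE, blue for the brightest set of each gene and grey for its other sets. Brightest sets from the far right, such as Ldha at -0.36, to Pygl at -2.03 lie mostly below 0, and the brightest grey point clearly above 0 is an Aldoa set with a mean signal of 1786.

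Genes beside these steps were taken from lists of neighbouring pathways. In the interaction 10.2% of all genes were lower and 7.82% higher at p under 0.05, to be read beside each count of a list. Of 18 other glycolysis genes 11 were tested, with a median interaction of 0.05, 0 below 0 and 2 above 0 at p under 0.05: Tigar, which lowers fructose 2,6-bisphosphate, at 0.73 (SE 0.27) and the ADP-dependent glucokinase Adpgk at 0.71 (SE 0.26). The pentose phosphate branch had 3 of 7 lower, H6pd (-1.07, SE 0.31), Pgd (-0.47, SE 0.19) and Taldo1 (-0.32, SE 0.14). Gluconeogenesis and anaplerosis had 3 of 8 lower, Pck2 (-1.09, SE 0.34), Gpt2 (-1.09, SE 0.37) and Pcx (-0.55, SE 0.20). The Pcx control sets had their highest 3'/5' ratio, 15.5, on SEMA6A replicate 2.

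Against the same 10.2% and 7.82% of all genes, 3 of 12 other glycogen genes tested were lower: the primer Gyg (-0.59, SE 0.17), the muscle phosphorylase Pygm (-1.31, SE 0.48) and the phosphatase subunit Ppp1r3b (-0.59, SE 0.25). The serine and one-carbon branch, which leaves glycolysis at 3-phosphoglycerate, had 2 of 8 lower, Mthfd2 (-0.44, SE 0.15) and Shmt2 (-0.43, SE 0.17), both mitochondrial enzymes, and 2 higher, Shmt1 (0.59, SE 0.19) and Mthfd1 (0.45, SE 0.16), both cytosolic. Of 16 citric acid cycle genes 0 had p under 0.05 in either direction (median 0.02), and so had 0 of 5 further pyruvate dehydrogenase genes (median -0.03). Of 8 regulators 2 were lower, Vhl, which targets HIF proteins for breakdown (-0.76, SE 0.22), and Mlxip, a glucose-sensing factor (-0.52, SE 0.22), while Myc stood at 0.47 (SE 0.23). In every list 0 genes passed in limma's test after adjustment over all genes, with values of 0.197 or above.

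Markers of cell types were read in the interaction too, and none passed after adjustment. Of the 7 T cell and cytotoxic markers 3 were lower at p under 0.05 (10.2% of all genes), Cd3e at -0.59 (SE 0.16), Prf1 at -0.52 (SE 0.22) and Gzmb at -0.17 (SE 0.08). The list's median was -0.15. The squamous carcinoma list had a median of -0.52, with 1 of 10 genes lower (Dsp) and 1 higher (Perp). Lower values also came from 1 of 4 macrophage genes (Cd68, list median -0.42) and 1 of 3 mast cell genes (Kit, list median -0.58). So did 1 of 2 muscle genes (Ckm, list median -0.91) and Il1r2 of the neutrophil list at -2.21. Of B cell genes Cd79b stood at -0.35, and no erythroid gene was tested. The part of these cell types in the glycolysis values was not tested.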

How the data were processed

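Affymetrix arrays of 12 samples, 3 per group, were analysed. The deposited values are a linear intensity per probe set produced by MAS5 (version not given in the sources used), as named in the deposited processing notes. Each array had a mean of 500 after trimming 2% at each end, so a single factor per array had been applied. The number of arrays limits the precision.

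Intensities were transformed as log2(signal + 16), which understates changes of dim genes, and quantile normalized without 64 control sets, since array medians differed by a factor of 1.26. Of 45101 probe sets, 34945 named 1 gene, 932 several and 9160 were not listed in the platform annotation. Sets above their array's median on at least 3 arrays were kept (24366), and the brightest set by mean log2 level stood for each of 11325 genes. Gene names were matched by identifier to RefSeq (GRCm38.p6) for 39 of the 42 genes, with 0 symbols changed. limma 3.58.1 in R 4.3.3 fitted 4 group means with a trended prior (8 residual and 5.14 prior degrees of freedom). Benjamini-Hochberg adjustment was over all genes at 0.05. The fit was also run on simulated data with independent noise for each gene and array, which did not cover shifts shared across an array. The members, lists, tests and alternatives were chosen with earlier results of these data known.

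Genes printed with values are, by rule, the brightest of each step, those with p under 0.01 in a comparison and those whose probe sets disagreed in sign, which gave 22; the other 12 tested genes are given for completeness. Of other lists, up to 4 genes with the smallest interaction p were taken. The replicate numbers were not used to pair the arrays in the main fit, and some arrays with other numbers deviated together. Alternatives were the normalization, pseudocount, filter, probe set, arrays fitted, prior, array weights, a replicate block and each array left out. No 2 arrays held identical values (correlations 0.973 to 0.986). Figures were drawn with Python 3.11.15 and matplotlib 3.10.9.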

Additional observations from a re-analysis of the deposited data

How the results depend on the processing

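Over 24 other settings, 3156 values of the named genes were recomputed: 3013 kept their sign and their side of the threshold, 75 kept their sign and passed a threshold they had missed, and 68 changed sign, all of them values whose 95% interval held 0. With median scaling, the median of SEMA6A+SEMA3A against control was -0.063, where all genes shifted to -0.15. With the 75th percentile filter, the interaction median was -0.57. Genes passing in SEMA6A+SEMA3A against control numbered 1 with the most variable probe set by interquartile range, 1 with only the arrays compared and 3 with gene by gene array weights, and against SEMA6A 1 with no prior trend and 6 with weights. With weights, 284 genes (2.51% of all genes) and 7 of the list passed against SEMA3A, and 1580 genes (14%) and 21 of the list in the interaction. The weights were lowest for SEMA6A replicate 2 (0.217) and highest for SEMA6A replicate 3 (2.00). Beyond these constructions the cause was not tested.

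Leaving out 1 array at a time, genes passing ran from 0 to 512 (4.55% of all genes) in SEMA6A against control. Of the list 0 to 12 passed there, with medians of 0.20 to 0.30. For SEMA3A against control the genes passing were 0, with medians of 0.22 to 0.37, and for SEMA6A+SEMA3A against control 0 to 1, with medians of 0.05 to 0.13. Against SEMA3A they were 0, with medians of -0.32 to -0.17. Against SEMA6A they were 0 to 381 (3.38% of all genes), with 0 to 11 of the list and medians of -0.23 to -0.17. For the interaction they were 0 to 1286 (11.4% of all genes), with 0 to 17 of the list and medians of -0.51 to -0.36. The highest counts came without SEMA6A replicate 1. Same-numbered arrays of different groups did not deviate together (r from -0.36 to 0.14 over 18 pairs, 1 over 0.1). Some arrays with other numbers did, with r from -0.23 to 0.42 over 36 pairs, 6 over 0.1. The highest were SEMA6A replicate 1 with SEMA3A replicate 3 (0.42) and SEMA6A replicate 2 with SEMA3A replicate 1 (0.33). Next came SEMA6A replicate 3 with SEMA3A replicate 2 (0.27). What these arrays had in common was not tested. With a replicate block 0 genes passed, 13 genes of the list were higher at unadjusted p under 0.05 in SEMA6A (5.49% of all genes) and 12 in SEMA3A (4.01%), and the interaction counts were 18 lower (8.88%) and 2 higher (6.69%). Dim probe sets, near the array medians, limit Hk3, Pklr and Pfkfb2.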
